A study of Mus musculus with 10 samples.

Results

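Mutant alveolar cells taken 2 weeks after induction were compared with mutant alveolar cells taken 4 days after induction, to ask how the transcriptome of cells carrying an induced oncogenic mutation differed between these time points. The cells came from the RFP-sorted libraries of the mutant reporter lungs, 2 at each time point. A barcode was kept where it had at least 1000 genes, no more than 50000 UMIs (unique molecular identifiers, which count captured mRNA molecules), no more than 15% mitochondrial UMIs and no UMI of Ptprc, the pan-leukocyte gene that encodes CD45. These rules kept 12305 cells in 4 libraries, 6925 at 2 weeks and 5380 at 4 days, of 30599 cells in the 10 libraries of the series.

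The series profiled lineage-labelled cells of the distal mouse lung by droplet single-cell RNA sequencing. All groups used here carried Sftpc-CreERT2 with a multicolour reporter allele linked to the mutation, came from 8-week-old mice induced with 3 doses of 0.2 mg tamoxifen per g body weight given every other day, and were sorted as EpCAM+ cells. Recombination of this reporter gives either red cells (RFP+), which also express the mutation, or wildtype cells of another colour, of which the YFP+ ones were sequenced from the same lungs at the same time points. The remaining 2 libraries came from Sftpc-CreERT2; R26R-Confetti lungs, which carry colours but no mutation. They entered the fit as 2 groups of 1 library each, which bear on the filter, the scaling and the trend of the dispersion with level but hold no replicate spread of their own.

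The model limits what the groups can show. CreERT2 was driven from the Sftpc locus, so recombination marks alveolar type 2 (AT2) cells and their progeny. Each sample pooled at least 2 lungs, and the labels do not say whether replicate libraries were made from separate pools of mice, so p-values measure only the spread between these pooled samples, part of which may be technical. The 4-day lungs were taken before the tamoxifen had washed out. Libraries were made over 2 days by the study's methods, but the labels do not say which on which. Whether a day was shared across the time points or differed between them is therefore not known, and no batch by day could be fitted.

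AT2 cells make surfactant and act as the stem cells of the alveolus. After injury they can enter a primed, inflammatory state and then a transient progenitor state, termed DATP (damage-associated transient progenitor), in which Krt8 and other simple-epithelial keratins are high, before they flatten into alveolar type 1 (AT1) cells, which form the gas-exchange surface. AT2 cells are also a known origin of lung adenocarcinoma. The states named for mutant cells in this system are marked by Itga2, an integrin subunit, and by Cd177, a neutrophil surface protein.

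The 2-week RFP cells held more UMIs per cell. The median was 4737 and 5144 UMIs per cell in the 4-day RFP libraries and 15685 and 13199 in the 2-week RFP libraries. In the YFP libraries it was 5919 and 6160 at 4 days and 5833.5 and 6577 at 2 weeks. Whether the RFP difference was deeper sequencing or more RNA per cell was not tested. The summed RFP libraries held 20417301 and 9210705 UMIs at 4 days and 71669755 and 39948309 at 2 weeks. Levels below are therefore in CPM (UMIs scaled to a common library total, with TMM factors), shares of cells were taken after each cell was thinned to 2000 UMIs, and folds are given again from thinned cells where the difference matters. The 3-count floor over both libraries of a time point was 0.104 CPM at 4 days and 0.0271 CPM at 2 weeks. Intervals and floors cover counting error only.

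The libraries differed in ways that the time points do not explain. The first 4-day library stood apart from the second: across genes, its log2 CPM correlated with the second 4-day library at 0.8905 and with the first 2-week library at 0.9202, and it was closest to a wildtype library, the first 4-day YFP library, at 0.9784. Female cells made up 82.3% and 0.383% of the cells that could be sexed in the 4-day libraries and 35.4% and 0.0512% in the 2-week libraries. Barcodes with a Ptprc UMI, which were removed, were 0.964% and 9.04% of those passing the other filters at 4 days and 3.51% and 19.8% at 2 weeks. At most 17 barcodes were shared between any pair of libraries of the series. The counts of genes past each threshold, the folds and the medians of the lists were therefore computed again without each library, within male cells and with the remaining leukocyte-like cells left out.

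Among the kept cells, markers of other cell types were also detected. Summed over 19 leukocyte markers, the level was 36.6 and 893 CPM at 4 days and 37.8 and 192 CPM at 2 weeks, with Tyrobp, an immune adaptor, at 3.40 and 142 CPM at 4 days and 2.05 and 21.7 CPM at 2 weeks. The second 4-day library held most of this signal, and 9.69% of its cells had a UMI of Tyrobp, Fcer1g or Cd52, against 1.10% in the first 4-day library and 3.25% and 7.28% at 2 weeks. The 9 ciliated markers summed to 168 and 180.2 CPM at 4 days and 47.9 and 108 CPM at 2 weeks, and the 9 endothelial markers to 137 and 41.4 CPM at 4 days and 46.5 and 21.2 CPM at 2 weeks. The 9 mesenchymal markers summed to 27.1 and 0.325 CPM at 4 days and 7.03 and 9.94 CPM at 2 weeks, and 6 of them had no UMI in the second 4-day library. Among 10 airway secretory genes the sum was 8241 and 16979.7 CPM at 4 days and 1819 and 2535 CPM at 2 weeks, well above the other marker lists, and was led by Scgb1a1, the club cell secretoglobin, at 4711 and 16126 CPM at 4 days and 306 and 2134 CPM at 2 weeks. Of these 10 genes, 3 were lower in both 2-week libraries (Scgb1a1, Scgb3a2 and Cyp2f2), 2 were higher (Muc5b and Bpifa1) and 5 overlapped, with a median log2 fold of -0.02. Muc5b, an airway mucin called by DESeq2, was at 0 and 0 CPM at 4 days and 5.77 and 0.661 CPM at 2 weeks. Their part in the differences below was not tested, other than by the fits without leukocyte-like cells and without cells carrying a UMI of Pecam1, Col1a1 or Foxj1.

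The label of alveolar type 2 origin was checked against Sftpc and epithelial markers. Sftpc, the surfactant gene whose promoter drives the Cre, was at 130871 and 59077 CPM at 4 days and 69969.9 and 69846 CPM at 2 weeks and was seen in 99.4% and 68.6% at 4 days and 94.6% and 83.4% at 2 weeks of cells thinned to 2000 UMIs (99.9% and 77.3% at 4 days and 100.0% and 96.4% at 2 weeks at full depth). In Ptprc+ barcodes the thinned share was 94.6% and 19.7% at 4 days and 87.9% and 37.1% at 2 weeks, close to that of the mutant cells in the first library of each time point and far below it in the second, so in the first libraries the share alone does not tell these cells from leukocyte barcodes. The second 4-day library had the lowest share of cells with Sftpc. Epcam, used in the sort, was at 317 and 272 CPM at 4 days and 508 and 746 CPM at 2 weeks, higher in both 2-week libraries, and the 6 epithelial markers were not overlapping between the time points in 5 cases, where 41.6% of all genes did not overlap, with a median log2 fold of 1.14.

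No gene passed the threshold of 0.05 in edgeR's quasi-likelihood test with Benjamini-Hochberg adjustment over 14856 genes (0%). The smallest adjusted p was 0.0965, for Apoa1. At an unadjusted p under 0.05 there were 1295 genes (8.72%), 771 of them higher at 2 weeks (5.19%) and 524 lower (3.53%). That number rested on the second 2-week library more than on any other: it was 335 without it, and up to 1586 without another of the RFP libraries. With the replicate number as a block it was 2127, still with no gene past the adjusted threshold. DESeq2 called 91 genes on the same counts, 58 higher and 33 lower, and in each of these the libraries did not overlap. Without a low-count filter, edgeR called 101 genes, and 63 genes were called both there and by DESeq2. Among the genes named here, the DESeq2 calls took in the 20 leading genes described next, and Krt8, Krt18, Anxa1, Cd177, Cd38, Pdpn, Cdkn2a, Cdkn2b, Hspa5, Hsp90ab1, Meg3, Mirg, Id1, H2-Eb1, Spry2, Porcn, Cldn2, Kng2, Cox6a2, Scgb3a2 and Muc5b.

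The libraries of the time points did not overlap in 6180 genes (41.6%), with 3559 higher at 2 weeks (24%) and 2621 lower (17.6%). A comparison of 2 libraries with 2 cannot reach a p under 0.333 in an exact permutation test, and this share is the background against which the lists below are read. Past a log2 fold of 1 lay 905 genes higher at 2 weeks (6.09%) and 1832 lower (12.3%). The median log2 fold over all genes was -0.019.

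**Figure D1:**
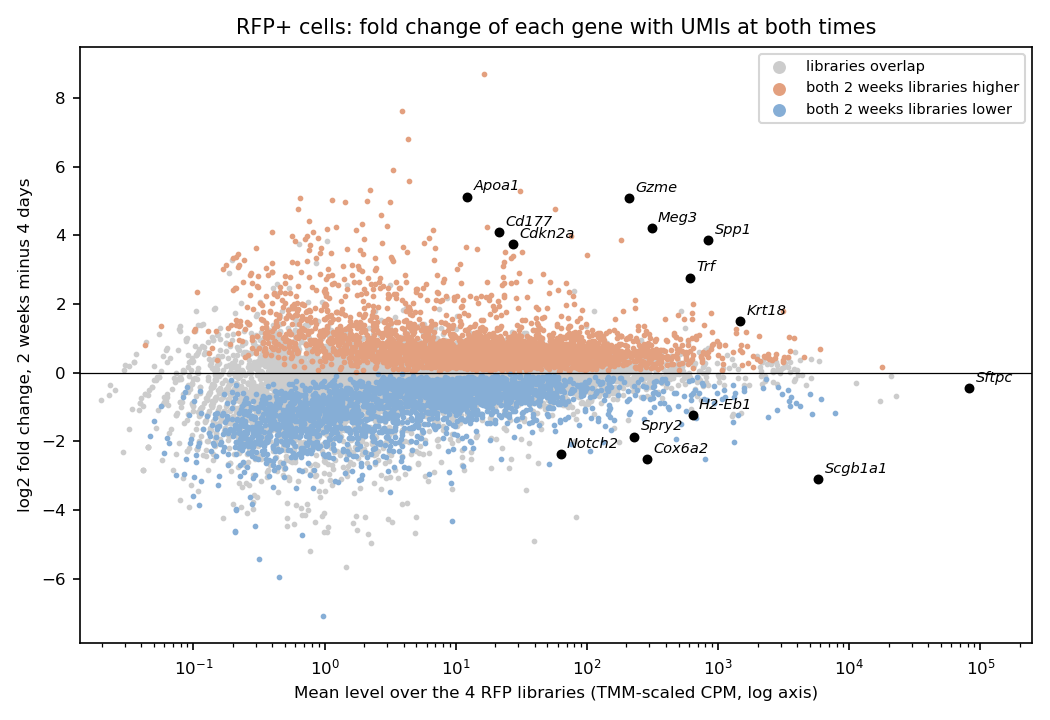
Log2 fold change between 2-week and 4-day RFP libraries (vertical axis) against mean level in TMM-scaled CPM (horizontal log axis), 1 point per gene, coloured by whether the libraries overlap, for 14808 genes; 48 genes without a UMI in either library of a time point are not drawn. Labelled genes include Apoa1 at 5.13 and Notch2 at -2.36.

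By the rule for the leading genes (lowest unadjusted p among genes whose libraries do not overlap, whose higher time point averages at least 10 CPM and whose direction holds after thinning), Apoa1 came first. Apoa1, at chr9:46228580-46230466, encodes the main protein of high-density lipoprotein and was at 0.457 and 0.975 CPM at 4 days and 27.3 and 20.4 CPM at 2 weeks. Both 2-week libraries were far above both 4-day libraries, with a log2 fold of 5.13 ± 0.46 (adjusted p 0.0965, edgeR), and leaving out any 1 library gave 4.6 to 5.69. In the wildtype YFP libraries of the same lungs Apoa1 was at 0.339 and 0.360 CPM at 4 days and 5.01 and 6.19 CPM at 2 weeks, so it was also higher at 2 weeks there. Trf, the iron carrier transferrin, was at 162 and 150.1 CPM at 4 days and 916 and 1209.5 CPM at 2 weeks, a log2 fold of 2.77 ± 0.43 with 2.47 to 2.97 when a library was left out. Srd5a1, a steroid 5-alpha-reductase, was at 1.37 and 3.14 CPM at 4 days and 22.8 and 30.7 CPM at 2 weeks. Golm1, a Golgi membrane protein, was at 17.2 and 30.8 CPM at 4 days and 80.4 and 164 CPM at 2 weeks, and Tspan1, a tetraspanin, was at 41.2 and 46.7 CPM at 4 days and 128 and 138 CPM at 2 weeks. The other genes of this direction were Hist1h1b, a linker histone made in S phase, Stk39, a kinase that regulates chloride cotransporters, the beta-tubulin gene Tubb2a, the GTPase regulator Bcr and the procollagen enhancer Pcolce, with log2 folds of 2.26 ± 0.35, 1.60 ± 0.27, 1.37 ± 0.25, 1.36 ± 0.27 and 1.75 ± 0.35. Tubb2a has a close copy, Tubb2b, with which reads could be shared, so its level is uncertain. The adjusted p was 0.567 for every leading gene but Apoa1.

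Among the 10 leading lower genes, Notch2, a Notch receptor, was at 79.1 and 132 CPM at 4 days and 27.9 and 13 CPM at 2 weeks, lower in both 2-week libraries than in either 4-day library, with a log2 fold of -2.36 ± 0.43 and -3.0 to -1.95 when a library was left out. Nr1d1, the circadian repressor Rev-erb alpha, was at 25.4 and 32.4 CPM at 4 days and 8.90 and 6.07 CPM at 2 weeks. Cpn1, a carboxypeptidase subunit, was at 44.7 and 45.3 CPM at 4 days and 17.3 and 13.5 CPM at 2 weeks. The time of day of each harvest is not given in the sources used here. Dynlrb2, a dynein light chain high in ciliated cells, was at 42.1 and 44.9 CPM at 4 days and 9.55 and 14 CPM at 2 weeks, and is itself 1 of the 9 ciliated markers summed above. The remainder were the chemokine gene Ccl27a, Smim27, Pan3, Klhdc1 and the uncharacterised Gm16174 and B430010I23Rik, with log2 folds between -1.82 and -1.23.

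**Figure D2:**
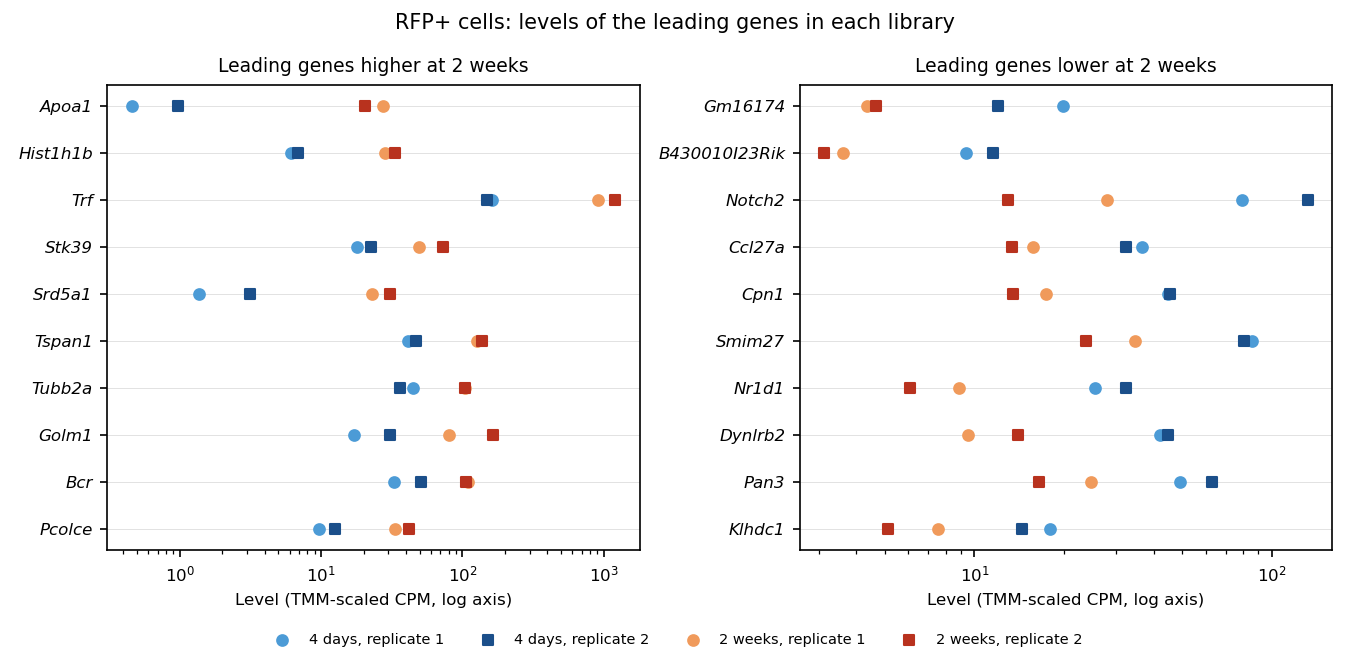
Level of the 20 leading genes in each of the 4 RFP libraries, in CPM on a log axis, with 1 point per library coloured by time point. The points of the time points do not overlap in any of the 20 genes, which is part of how they were chosen.

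Genes of the DATP state were higher at 2 weeks, in most cases. Of the 24 DATP genes, 15 were higher in both 2-week libraries and 1, Nupr1, was lower, with a median log2 fold of 0.57 (0.46 after thinning, 0.22 with a minimum of 2000 genes per cell and 0.23 in male cells), against 24% and 17.6% of all genes and a median of -0.019. In wildtype YFP cells 11 of the 24 were higher in both 2-week libraries and none lower, with a median of 0.67, against 9.85% and 11.4% of all genes. In RFP cells the median ranged over 0.40 to 1.62 when a library was left out, with the highest value without the second 4-day library. Krt8, the keratin that names this state, was at 427 and 671 CPM at 4 days and 1043 and 1458 CPM at 2 weeks, a log2 fold of 1.19 ± 0.32. It had a UMI in 41.5% and 52.2% at 4 days and 64.6% and 70.3% at 2 weeks of cells thinned to 2000 UMIs, and in 65.0% and 73.5% at 4 days and 94.3% and 94.2% at 2 weeks of cells at full depth. In barcodes with Ptprc, which should lack keratin, the thinned share was 18.9% and 5.10% at 4 days and 12.8% and 6.59% at 2 weeks, so the share in the mutant cells lay above this background in every library. Krt18, its partner, was at 642 and 898 CPM at 4 days and 1621 and 2761 CPM at 2 weeks (log2 fold 1.51 ± 0.36), and Krt7 was at 144 and 681 CPM at 4 days and 979 and 1759.8 CPM at 2 weeks, with the 4-day libraries already differing widely. Krt19 followed the same order, at 126 and 272 CPM at 4 days and 382 and 803 CPM at 2 weeks. Clu, a secreted chaperone linked to regeneration, was at 385 and 2410.1 CPM at 4 days and 4833 and 4919 CPM at 2 weeks, and Anxa1, an anti-inflammatory annexin, was at 188 and 394 CPM at 4 days and 790.4 and 1136 CPM at 2 weeks. Nupr1, a stress-response gene, was at 1228 and 1206 CPM at 4 days and 689.9 and 628 CPM at 2 weeks.

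Other markers of the transitional state were already high in the second 4-day library. Itga2 was at 5.18 and 152 CPM at 4 days and 111 and 150.3 CPM at 2 weeks, so its level in the second 4-day library exceeded that of both 2-week libraries, and its thinned share of cells was 0.553% and 15.7% at 4 days and 12.4% and 16.9% at 2 weeks (1.21% and 22.8% at 4 days and 26.2% and 35.2% at 2 weeks at full depth), with 0% and 0.637% at 4 days and 0% and 1.43% at 2 weeks in Ptprc+ barcodes. Cldn4, a tight junction claudin, was at 16.6 and 186 CPM at 4 days and 144 and 222 CPM at 2 weeks. Hmga2, an embryonic chromatin protein, was at 3.96 and 145 CPM at 4 days and 60.3 and 48.1 CPM at 2 weeks. Sox9, a distal lung progenitor factor, was at 0.914 and 41.5 CPM at 4 days and 27.7 and 17.9 CPM at 2 weeks. In each of these 4 genes the groups overlapped, with the first 4-day library far below the other 3 libraries.

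The study's mixed state, by its marker Cd177, separated the time points in these libraries. Cd177 was at 1.83 and 2.93 CPM at 4 days and 29.3 and 51.1 CPM at 2 weeks, a log2 fold of 4.10 ± 1.06 and 3.56 to 4.46 when a library was left out. Its share of thinned cells was 0.158% and 0.190% at 4 days and 2.86% and 4.85% at 2 weeks, against 0.316% and 0.570% at 4 days and 7.59% and 11.8% at 2 weeks at full depth, while Ptprc+ barcodes gave 2.70% and 0% at 4 days and 0.671% and 0.287% at 2 weeks when thinned. The background rests on 1 of 37 barcodes in the first 4-day library and on 1 of 149 in the first 2-week library, where its exact Clopper-Pearson 95% interval of 0.0170% to 3.68% holds the share of the mutant cells. Only in the second 2-week library did the share of the mutant cells lie clearly above this background. Cd177 is a neutrophil surface protein, so Ptprc+ barcodes may express it themselves and are no clean negative control for it. Cd38, a NAD-consuming ectoenzyme, was at 5.28 and 6.39 CPM at 4 days and 25.7 and 54.1 CPM at 2 weeks, with thinned shares of 0.527% and 0.888% at 4 days and 3.52% and 7.99% at 2 weeks (1.79% and 3.23% at 4 days and 19.8% and 29.4% at 2 weeks at full depth). In Ptprc+ barcodes the thinned shares of Cd38 were 0% and 1.91% at 4 days and 3.36% and 2.29% at 2 weeks, so the first 2-week library was near the share of these barcodes. Whether the Ptprc+ barcodes express Cd38 themselves was not tested. Spp1, osteopontin, was at 10.2 and 207 CPM at 4 days and 2033 and 1123 CPM at 2 weeks, a gene that macrophages also make at high levels, and its thinned share in Ptprc+ barcodes was 13.5% and 27.4% at 4 days and 20.8% and 49.4% at 2 weeks, while that of the mutant cells was 0.395% and 5.39% at 4 days and 16.1% and 21.7% at 2 weeks (0.658% and 7.98% at 4 days and 35.9% and 33.0% at 2 weeks at full depth). The share in the mutant cells was below that of the Ptprc+ barcodes in each library. Since macrophages make Spp1, these barcodes are no negative control for it, and the comparison cannot decide whether mutant cells express it. At 2 weeks 3.25% and 7.28% of the kept cells had a UMI of Tyrobp, Fcer1g or Cd52. The part of leukocyte RNA in the Spp1 share was not tested. Of 22 markers of mutant and alveolar states, most of them named in the study's text (Cd38, Hopx, Lcn2 and Lrg1 are not), 10 were higher in both 2-week libraries (45.5%, against 24% of all genes). Lower was 1 (4.55%, against 17.6%), the Wnt target Axin2, at 11.6 and 5.31 CPM at 4 days and 4.32 and 1.68 CPM at 2 weeks. Since most of that list was chosen on these samples, its direction is not independent evidence.

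Ligands of the epidermal growth factor receptor (EGFR) and Dlk1 are given by their values. Areg, an EGFR ligand made in lung repair, was at 280.2 and 574 CPM at 4 days and 998 and 1249.6 CPM at 2 weeks (log2 fold 1.40 ± 0.40), and its share of thinned cells was 21.1% and 36.8% at 4 days and 47.8% and 47.3% at 2 weeks (33.0% and 48.9% at 4 days and 76.1% and 68.7% at 2 weeks at full depth), above the 5.41% and 3.18% at 4 days and 14.8% and 5.59% at 2 weeks of Ptprc+ barcodes in every library. Ereg, a further EGFR ligand, was at 8.83 and 57.2 CPM at 4 days and 101 and 68.0 CPM at 2 weeks. Hbegf, another, was at 70.7 and 121 CPM at 4 days and 221 and 228 CPM at 2 weeks, with both 2-week libraries close to each other. Egfr, the receptor, was lower in both 2-week libraries. In the list of 13 EGFR genes tested, 4 were higher (30.8%, against 24% of all genes), all ligands. Lower were 2 (15.4%, against 17.6%), and the median was 0.10. Dlk1, a non-canonical Notch ligand high in fetal tissue, was at 14.8 and 32.6 CPM at 4 days and 369.7 and 312 CPM at 2 weeks. It had a UMI in 0.448% and 1.46% at 4 days and 9.93% and 10.3% at 2 weeks of thinned cells (0.737% and 2.09% at 4 days and 17.4% and 14.1% at 2 weeks at full depth), with 0% and 0% at 4 days and 2.68% and 1.29% at 2 weeks in Ptprc+ barcodes.

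Dlk1 lies in an imprinted cluster on chromosome 12, at chr12:109452823-109463336, and its neighbours there were higher too. Meg3, a long noncoding RNA at chr12:109541001-109571726, was at 38.2 and 25.7 CPM at 4 days and 232 and 948 CPM at 2 weeks, a log2 fold of 4.20 ± 1.02 and 2.78 to 4.90 when a library was left out, lowest without the second 2-week library. Mirg, at chr12:109729764-109749460, was at 0.711 and 1.41 CPM at 4 days and 6.61 and 19.2 CPM at 2 weeks. All 3 genes were higher in both 2-week libraries, Meg3 and Mirg with the second 2-week library highest. Of 18 imprinted genes tested, 4 were higher and 2 lower (22.2% and 11.1%, against 24% and 17.6% of all genes), and the median was -0.076. The list as a whole thus did not share the direction of these 3 genes, which were chosen with their values known.

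Granzyme and mast cell protease genes are usually products of cytotoxic lymphocytes and mast cells, and 5 of 17 listed were tested. The other 12 listed genes did not pass the low-count filter, and a gene that passes only because it is high at 1 time point has to differ, so the 5 that passed are described by their values alone. Gzme was at 0.914 and 23.8 CPM at 4 days and 610.2 and 203 CPM at 2 weeks, with a UMI in 0.132% and 1.14% at 4 days and 10.2% and 6.58% at 2 weeks of thinned cells (0.210% and 2.41% at 4 days and 19.5% and 14.4% at 2 weeks at full depth) and in 0% and 0% at 4 days and 0.671% and 0.716% at 2 weeks of Ptprc+ barcodes. At 2 weeks the share was thus larger in the mutant cells than in the Ptprc+ barcodes, although the gene is best known from lymphocytes. Gzme was also higher at 2 weeks in the YFP libraries, at 0 and 0.0601 CPM at 4 days and 37.2 and 58.7 CPM at 2 weeks. Mcpt8 was at 0.406 and 18.4 CPM at 4 days and 238 and 46.3 CPM at 2 weeks, and Mcpt2 at 0.355 and 3.03 CPM at 4 days and 114 and 5.92 CPM at 2 weeks, each led by the first 2-week library. Mcpt1 had 2 UMIs in all over both 4-day libraries, under the 3-count floor. Its pooled ratio of 602 is therefore no exact fold, with a counting interval of 167 to 4973. The log2 fold of Mcpt1 ranged more widely, over 4.94 to 12.7, when a library was left out. Genes of this cluster are close copies of each other, so their reads may be shared and the members cannot be fully told apart.

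Genes typical of stomach and gut were partly detected. Of 26 listed, 16 were tested, of which 10 were higher in both 2-week libraries, 6 overlapped and none was lower. Their log2 folds ran from -1.34 to 4.77, with a median of 2.26 (2.02 after thinning, 3.13 in YFP cells). That median ranged over 1.34 to 4.38 when a library was left out. Ctse, an aspartic protease of the stomach, was at 0.406 and 9.54 CPM at 4 days and 35.3 and 64.3 CPM at 2 weeks. Gkn2, a gastrokine of the stomach lining, was at 0.965 and 21.8 CPM at 4 days and 74.6 and 87.7 CPM at 2 weeks. Tff1, a trefoil peptide of gastric mucus, was at 1.02 and 8.45 CPM at 4 days and 56.8 and 27.8 CPM at 2 weeks. Cldn2, a claudin of leaky epithelia, was at 0.609 and 3.03 CPM at 4 days and 22.6 and 21.5 CPM at 2 weeks. Each of these 4 genes was higher in the second 4-day library than in the first. The other 10 listed genes did not pass the low-count filter, so the count and the median of those that did are no support for a direction.

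The cell-cycle brakes at the Ink4 locus were higher, while cycling genes were less clear. Cdkn2a, at chr4:89274471-89294653, encodes p16 and p19ARF and was at 1.22 and 6.72 CPM at 4 days and 38.1 and 63.9 CPM at 2 weeks, and its neighbour Cdkn2b, p15, at chr4:89306299-89311039, was at 5.33 and 15.2 CPM at 4 days and 35.3 and 92.2 CPM at 2 weeks. Both were higher in both 2-week libraries, with log2 folds of 3.74 ± 0.91 (2.92 to 5.38 when a library was left out, highest without the second 4-day and lowest without the first 4-day library) and 2.65 ± 0.69 (1.72 to 3.58, highest without the second 4-day and lowest without the second 2-week library), and the folds from thinned cells were 4.26 and 2.90. Ccnd1, cyclin D1, was at 182 and 201 CPM at 4 days and 270.2 and 379 CPM at 2 weeks. Of 32 S-phase genes, 8 were higher and none lower (median 0.41), close to the 24% background, and of 30 G2 and mitosis genes only 2, Cenpe and Kif23, were higher. Mki67, a marker of cycling cells, had a UMI in 2.71% and 3.11% at 4 days and 6.14% and 2.23% at 2 weeks of thinned cells (5.92% and 7.47% at 4 days and 22.2% and 7.81% at 2 weeks at full depth), so the 2-week libraries stood on both sides of the 4-day ones, and in 0% and 7.01% at 4 days and 5.37% and 8.60% at 2 weeks of Ptprc+ barcodes.

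**Figure D3:**
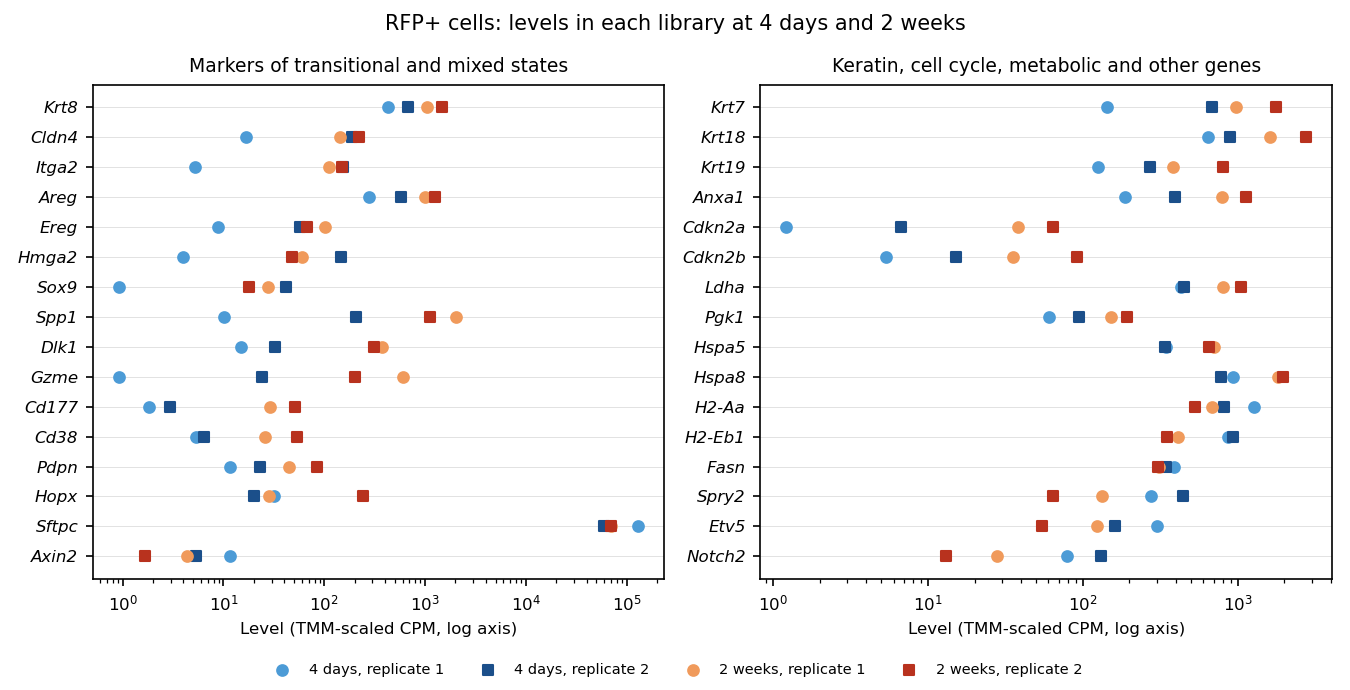
Level of markers of transitional and mixed states (left) and of keratin, cell-cycle, metabolic and other genes (right) in each RFP library, in TMM-scaled CPM on a log axis, 1 point per library. Krt8 and Cd177 separate the time points, while Itga2 and Hmga2 do not, because the second 4-day library is high.

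Glycolytic genes and chaperones were higher in most of their members, and the others overlapped but for 1. Of 25 genes of glycolysis and hypoxia, 13 were higher in both 2-week libraries (52%, against 24% of all genes). Lower was 1, Hk2 (4%, against 17.6%), and the median log2 fold was 0.77 (0.57 after thinning). Ldha, lactate dehydrogenase A, was at 427 and 452 CPM at 4 days and 802 and 1047 CPM at 2 weeks, a log2 fold of 1.07 ± 0.34. Pgk1, phosphoglycerate kinase, was at 60.8 and 94.5 CPM at 4 days and 153 and 194 CPM at 2 weeks, a log2 fold of 1.16 ± 0.36. Pkm, pyruvate kinase, was at 118 and 173 CPM at 4 days and 271 and 420.1 CPM at 2 weeks, a log2 fold of 1.25 ± 0.34. In these 3 genes the second 2-week library was the highest. Of 18 heat-shock chaperone genes, 11 were higher (61.1%, against 24% of all genes) and none lower (17.6% of all genes), median 1.00. In YFP cells 7 of the 18 were also higher in both 2-week libraries and none lower, median 0.68, against 9.85% and 11.4% of all genes. Hspa8, a constitutive chaperone, was at 929 and 777 CPM at 4 days and 1823 and 1952 CPM at 2 weeks. Hsp90ab1, a cytosolic one, was at 792 and 802 CPM at 4 days and 1566 and 2306 CPM at 2 weeks. Hspa5, of the endoplasmic reticulum, was at 346 and 337 CPM at 4 days and 704 and 654 CPM at 2 weeks, with replicates within each time point close to each other. Hspa1a was at 405 and 103 CPM at 4 days and 1261 and 787 CPM at 2 weeks; it is nearly identical to Hspa1b, so its level is uncertain. Chaperones also respond to tissue dissociation, and the immediate-early genes that do the same had 8 of 22 members higher (36.4%, against 24% of all genes) and none lower. Their median was 0.36, and 0.17 to 0.60 when a library was left out. The part of handling was not tested.

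The glycolysis, chaperone and MHC class II lists were searched for the letters of a known factor's site, and the promoter of a member of each is shown. Sequences are from RefSeq (GRCm38.p6), 250 bases before to 50 after a start, with the matches to the motif in capitals. Where several starts were listed, as for Ldha (2 starts), the start with the most matches was taken. The sequences are therefore examples with matches and not representative of their lists. The Ldha promoter, chr7:46845554-46845853 on the plus strand, was searched for ACGTG, letters of the hypoxia response element, on both strands, where CACGTG counts as a match on each. Hspe1, at chr1:55087898-55088197 on the plus strand, was searched for GAANNTTC, the inverted repeat of the heat-shock element, and H2-Eb1, at chr17:34305617-34305916 on the plus strand, for GATTGG, the reverse of a CCAAT box, as in the Y box of MHC class II promoters, both also on either strand.
Ldha: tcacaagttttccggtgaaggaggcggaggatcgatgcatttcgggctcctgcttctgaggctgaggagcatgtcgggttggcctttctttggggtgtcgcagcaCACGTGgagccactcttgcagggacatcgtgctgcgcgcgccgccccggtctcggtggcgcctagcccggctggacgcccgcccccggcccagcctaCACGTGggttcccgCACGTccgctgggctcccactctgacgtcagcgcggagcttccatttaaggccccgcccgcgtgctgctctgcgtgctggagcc
Hspe1: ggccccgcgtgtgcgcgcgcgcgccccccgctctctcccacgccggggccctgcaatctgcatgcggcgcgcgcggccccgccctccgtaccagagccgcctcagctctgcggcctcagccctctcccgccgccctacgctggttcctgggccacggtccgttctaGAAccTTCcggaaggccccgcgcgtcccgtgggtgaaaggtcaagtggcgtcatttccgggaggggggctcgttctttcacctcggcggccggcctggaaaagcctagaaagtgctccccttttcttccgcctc
H2-Eb1: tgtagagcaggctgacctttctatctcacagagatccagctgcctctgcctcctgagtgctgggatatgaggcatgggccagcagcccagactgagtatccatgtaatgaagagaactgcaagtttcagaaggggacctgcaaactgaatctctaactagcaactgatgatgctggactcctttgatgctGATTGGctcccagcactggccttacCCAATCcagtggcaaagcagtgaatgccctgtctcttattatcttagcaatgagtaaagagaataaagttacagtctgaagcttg
The matches numbered 5, 1 and 2. By list, ACGTG was in 18 of 33 promoters of the 23 glycolysis genes matched (54.5%), against 19.6% of 32851 promoters of this length. GAANNTTC was in 11 of 20 promoters of 14 chaperone genes (55%, against 7.86%), and GATTGG in 6 of 8 promoters of 7 MHC class II genes (75%, against 16.1%). A match is only a description of the letters, and says nothing of binding.

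Most MHC class II genes were lower. Of the 10 tested, none was higher (24% of all genes) and 6 were lower (60%, against 17.6%) in both 2-week libraries. The median log2 fold was -0.78 (-0.83 after thinning). With a minimum of 2000 genes per cell the median was -0.12. In YFP cells 5 of the 10 were also lower in both 2-week libraries and 1 was higher, against 11.4% and 9.85% of all genes, with a median of -0.065. AT2 cells express these genes at homeostasis, and leukocytes do so more strongly. H2-Eb1 was at 867 and 936 CPM at 4 days and 414 and 349.8 CPM at 2 weeks, a log2 fold of -1.24 ± 0.27. H2-Aa, a class II alpha chain, was at 1279 and 816 CPM at 4 days and 680.4 and 527 CPM at 2 weeks. Cd74, the invariant chain, was at 7203 and 5042 CPM at 4 days and 4477 and 3415 CPM at 2 weeks. The second 4-day library, which held most of the leukocyte marker signal, was also the highest in H2-Eb1, while H2-Aa and Cd74 were highest in the first. In the fit without leukocyte-like cells, 0 of the medians of 46 gene lists, this list included, moved beyond the replicate spread, and 3 changed sign. That spread was 0.29 for this list, so a smaller move would not show by this measure. The part of leukocyte RNA within the remaining cells was not tested.

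Wnt and Notch genes are given beside the shares of all genes, 17.6% lower and 24% higher. Of 27 Wnt genes, 10 were lower (37.0%), among them Axin2, Lef1 and Lgr4, and 4 were higher (14.8%), among them Wnt5a and Porcn. Porcn, the acyltransferase that Wnt ligands need, was at 3.76 and 2.28 CPM at 4 days and 8.43 and 29.0 CPM at 2 weeks. Of 16 Notch genes, 6 were lower (37.5%) and 2 higher (12.5%). The median of the Notch list, -0.63, ranged over -0.92 to 0.017 when a library was left out. It turned positive without the first 4-day library, so no direction is read from that list. Jag1, a ligand, was at 116 and 77.3 CPM at 4 days and 57.2 and 19.1 CPM at 2 weeks. Hes1, a target, was at 161 and 184 CPM at 4 days and 124 and 115 CPM at 2 weeks.

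In ERK feedback, which dampens growth factor signalling, the list of 19 had 5 higher and 3 lower. These shares, 26.3% and 15.8%, were near the 24% and 17.6% of all genes. Spry2, an inhibitor of receptor tyrosine kinase signalling, was at 277 and 446 CPM at 4 days and 134 and 64.5 CPM at 2 weeks. Etv5, an ETS factor downstream of ERK in AT2 cells, was at 303 and 161 CPM at 4 days and 123 and 54.6 CPM at 2 weeks. Both were lower in both 2-week libraries, and were named after their values were seen. Phlda1, an ERK-responsive gene, was at 439 and 337 CPM at 4 days and 769 and 583 CPM at 2 weeks. Ier3, an immediate-early gene, was at 363 and 293 CPM at 4 days and 416 and 402 CPM at 2 weeks. Both of these were higher, as were Dusp6, Etv4 and Epha4, while Spred2 was the third lower gene. Id1, a target of BMP signalling, was at 78.1 and 87.2 CPM at 4 days and 188 and 298 CPM at 2 weeks and Id3, another, at 90.7 and 77.2 CPM at 4 days and 152 and 190.5 CPM at 2 weeks, while the ligand Bmp4 was at 93.6 and 45.9 CPM at 4 days and 113 and 184 CPM at 2 weeks. All 3 of these were higher.

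The coagulation list had 6 of 17 members higher and 2 lower (35.3% and 11.8%, against 24% and 17.6% of all genes), median 0.95. That median ranged over 0.027 to 2.08 when a library was left out. In YFP cells 9 of the 17 were higher in both 2-week libraries and none lower, median 1.47, against 9.85% and 11.4% of all genes. Procr, the protein C receptor, was at 1.98 and 32.3 CPM at 4 days and 55.1 and 308 CPM at 2 weeks. F3, tissue factor, was at 20.2 and 153 CPM at 4 days and 212 and 538 CPM at 2 weeks. Kng2, a kininogen, was at 3.05 and 5.09 CPM at 4 days and 37.9 and 181 CPM at 2 weeks. All 3 were highest in the second 2-week library. Among AT1 genes, 6 of 26 were higher and 1 lower (23.1% and 3.85%, against 24% and 17.6% of all genes). The share of higher genes was thus near that of all genes. Pdpn, podoplanin, was at 11.6 and 22.9 CPM at 4 days and 44.7 and 84.5 CPM at 2 weeks. Aqp5, a water channel, was at 579 and 326 CPM at 4 days and 668 and 1283 CPM at 2 weeks. Ager was at 787 and 348 CPM at 4 days and 609.9 and 1114 CPM at 2 weeks and overlapped. Hopx was at 31.8 and 19.9 CPM at 4 days and 28.2 and 241 CPM at 2 weeks, so it was high in the second 2-week library alone, and its thinned share of cells was 4.79% and 2.98% at 4 days and 4.91% and 22.1% at 2 weeks (9.84% and 6.14% at 4 days and 20.6% and 48.7% at 2 weeks at full depth). In Ptprc+ barcodes that share was 10.8% and 6.37% at 4 days and 18.8% and 7.02% at 2 weeks, the first of these from 4 of 37 barcodes. Only in the second 2-week library was the share in the mutant cells above that of these barcodes. Whether the Ptprc+ barcodes express Hopx themselves was not tested.

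AT2 identity genes showed no common direction: of 24, 4 were higher (16.7%), 2 were lower (8.33%) and 18 overlapped, with a median log2 fold of -0.18. Over all genes 24% were higher and 17.6% lower, and the counts of this paragraph are to be read beside these shares. Sftpc overlapped (log2 fold -0.44 ± 0.47), as did Lyz2 at 33354 and 10781 CPM at 4 days and 17610.3 and 7402 CPM at 2 weeks. Of 29 NF-kB and interleukin-1 genes, 5 were higher and 5 lower, median -0.28, and Nfkbia, the NF-kB inhibitor and target, was at 335 and 157 CPM at 4 days and 293 and 164 CPM at 2 weeks. Of 28 interferon genes, 2 were higher and 3 lower. Ribosomal protein genes (24 higher and 15 lower of 82) and respiratory chain genes (26 and 23 of 80) were split between the directions, and among fatty acid genes 10 of 21 were lower and 4 higher, median -0.26 (-0.45 to -0.049 when a library was left out, and 0.026 with a minimum of 2000 genes).

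**Figure D4:**
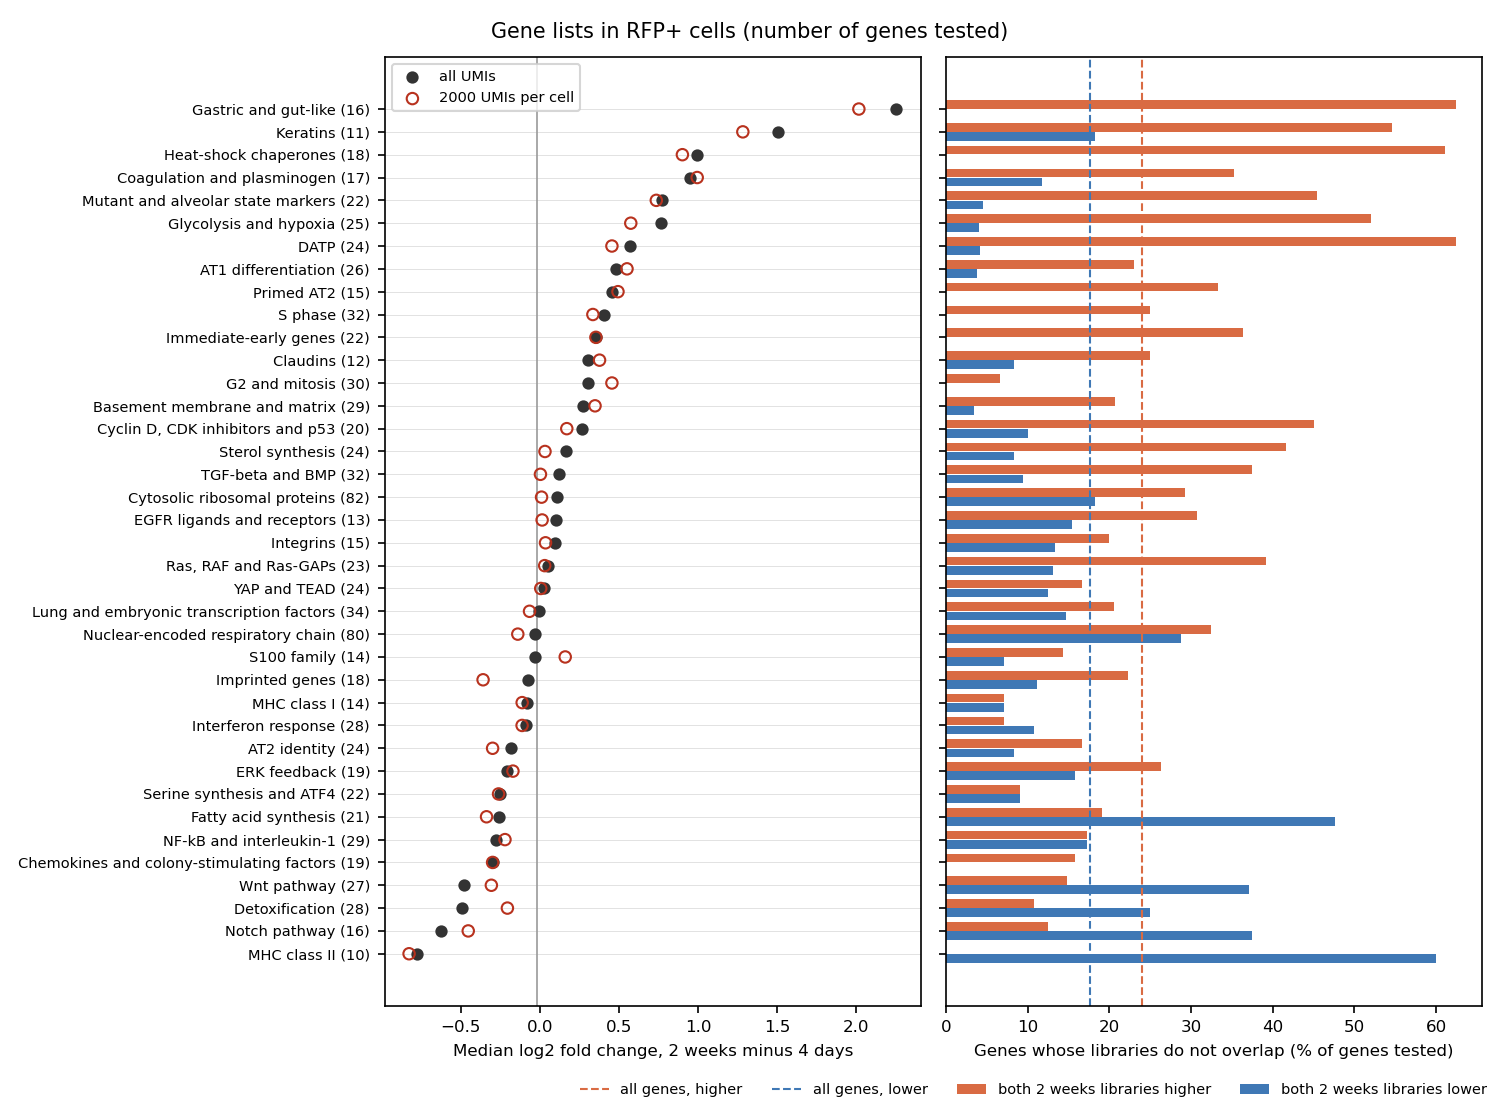
Left, median log2 fold change of each gene list between 2-week and 4-day RFP libraries, from all UMIs (filled) and from cells thinned to 2000 UMIs (open), with the median of all genes as a grey line. Right, percent of each list's tested genes that were higher or lower in both 2-week libraries, with dashed lines at 24% and 17.6% for all genes.

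**Figure D5:**
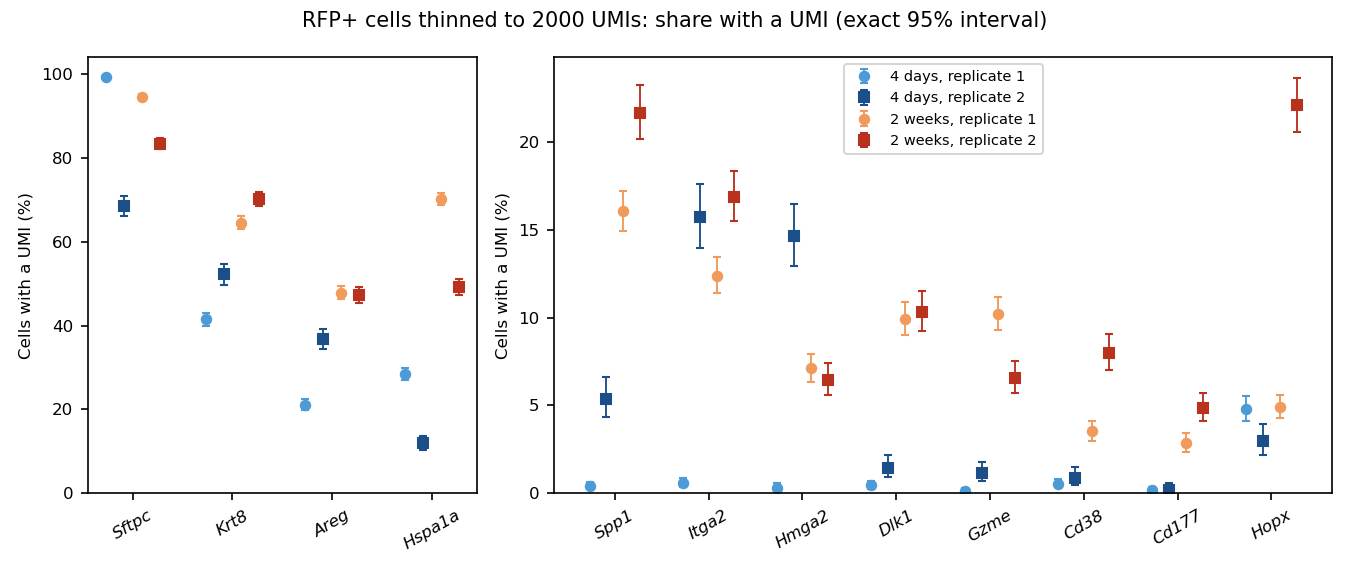
Share of cells with a UMI of each gene after thinning to 2000 UMIs, in percent, 1 point per RFP library with an exact Clopper-Pearson 95% interval that covers counting error only. Krt8, Cd177 and Dlk1 are higher in both 2-week libraries, while Itga2 and Hmga2 are low in the first 4-day library alone.

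Primed AT2 genes, which encode secreted acute-phase and innate defence proteins, had 5 of 15 members higher in both 2-week libraries (24% of all genes) and none lower, with a median log2 fold of 0.45 (0.12 to 0.95 when a library was left out, lowest without the first 2-week and highest without the second 4-day library, and 0.81 with a minimum of 2000 genes). In YFP cells none of the 15 was higher in both 2-week libraries and 1 was lower, with a median of 0.51. Lrg1, an acute-phase glycoprotein, was at 473 and 1167 CPM at 4 days and 1456 and 1413 CPM at 2 weeks, and Il33, an alarmin of the interleukin-1 family, was at 203 and 248 CPM at 4 days and 493 and 288 CPM at 2 weeks. Lcn2, lipocalin 2, was at 2334 and 3776 CPM at 4 days and 5557 and 3676 CPM at 2 weeks and overlapped. Of 19 chemokine and colony-stimulating factor genes, 3 were higher (15.8%, against 24% of all genes) and none lower (17.6% of all genes). Csf2, which encodes GM-CSF, was at 68.1 and 263 CPM at 4 days and 135 and 45.5 CPM at 2 weeks and overlapped.

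Detoxification genes were lower in 7 of 28 cases (25%, against 17.6% of all genes) and higher in 3, with a median of -0.49 (-0.21 after thinning). S100g, a calcium-binding protein, was at 2559 and 1219 CPM at 4 days and 931 and 466 CPM at 2 weeks. Cox6a2, a cytochrome oxidase subunit otherwise known from muscle, was at 658 and 322 CPM at 4 days and 149 and 22.1 CPM at 2 weeks. Cbr2, a carbonyl reductase, was at 2326 and 371 CPM at 4 days and 371 and 101 CPM at 2 weeks, so the second 4-day and the first 2-week library stood at the same level. Scgb3a2, a secretoglobin of airway cells, was at 56.8 and 121 CPM at 4 days and 13.4 and 14.7 CPM at 2 weeks, with both 2-week libraries below both 4-day libraries, as for Scgb1a1.

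Lipid synthesis genes split. Of 24 sterol synthesis genes, 10 were higher and 2 lower (41.7% and 8.33%, against 24% and 17.6% of all genes). Their median was 0.17 (0.032 after thinning). Insig1, the sterol-sensing brake on this pathway, was lower, at 135 and 212 CPM at 4 days and 90.4 and 47.6 CPM at 2 weeks. In fatty acid synthesis, Fasn, the fatty acid synthase, was at 391 and 345 CPM at 4 days and 308 and 308 CPM at 2 weeks. Scd1, a desaturase, was at 3275 and 3353 CPM at 4 days and 2758 and 2161 CPM at 2 weeks. Both of these folds turned positive when cells under 2000 genes were left out (0.34 and 0.37), so their direction depended on that filter.

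Matrix, adhesion and YAP genes are given beside the shares of all genes, without a test of the difference. Higher in both 2-week libraries were 20.7% of matrix, 20% of integrin, 25% of claudin and 16.7% of YAP genes (24% of all genes). Lower were 3.45%, 13.3%, 8.33% and 12.5% in the same order (17.6% of all genes). Sparc, a matrix protein, was at 202 and 99.8 CPM at 4 days and 250.3 and 531 CPM at 2 weeks, and 6 of 29 matrix genes were higher. Itgb1, the common beta-1 integrin, was at 240.1 and 209 CPM at 4 days and 248 and 245 CPM at 2 weeks, a log2 fold of 0.14 ± 0.27, so the separation was small. Cldn3, a tight junction claudin, was at 751 and 479 CPM at 4 days and 754 and 985 CPM at 2 weeks. Cldn7, another, was at 337 and 343 CPM at 4 days and 458 and 496 CPM at 2 weeks. Cyr61, a YAP target, was at 82.0 and 46.9 CPM at 4 days and 213 and 93.6 CPM at 2 weeks, and 4 of 24 YAP genes were higher and 3 lower. Of 32 TGF-beta and BMP genes, 12 were higher and 3 lower (37.5% and 9.4%, against 24% and 17.6% of all genes), median 0.12. S100a6, a calcium-binding protein of the transitional state, was at 762 and 8059 CPM at 4 days and 5091 and 6439 CPM at 2 weeks and overlapped.

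Leaving out each library in turn, the median of the chaperone list was 0.33 to 1.06, lowest without the first 2-week library. The glycolysis median was 0.37 to 0.99, lowest without the second 2-week library, and that of MHC class II was -0.84 to -0.66. The AT2 identity median changed sign, at -0.55 to 0.27, and was positive without the first 4-day library. So did the medians of the detoxification list, at -0.84 to 0.30, which was positive without the first 4-day library, and of the NF-kB and interleukin-1 list, at -0.42 to 0.18, which was positive without the second 4-day library. The S-phase median was -0.18 to 0.80 and negative without the first 2-week library. The medians of the EGFR (-0.22 to 0.34), imprinted (-0.31 to 0.39), TGF-beta and BMP (-0.016 to 0.32) and airway secretory (-0.31 to 0.70) lists also changed sign. The same held for AT1 differentiation (-0.031 to 1.30), ERK feedback (-0.45 to 0.47), chemokines (-0.61 to 0.87), interferon response (-0.50 to 0.38), G2 and mitosis (-0.43 to 0.74), YAP (-0.083 to 0.12), integrins (-0.21 to 0.13), ribosomal proteins (-0.13 to 0.35) and the respiratory chain (-0.15 to 0.16). No direction is read from the median of any list that changed sign, the Notch list included.

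The same comparison in wildtype YFP cells of these lungs asks whether the difference is particular to mutant cells. There, the test called no gene (0%), and 185 genes had an unadjusted p under 0.05 (1.25%). The YFP libraries did not overlap in 1464 genes higher at 2 weeks (9.85%) and 1696 lower (11.4%), fewer than in the RFP cells, but these counts were not tested against each other. The interaction, which asks whether the change over time differed between RFP and YFP cells, had no gene past the adjusted threshold (0%, smallest adjusted p 1.00 by edgeR) and 269 at an unadjusted p under 0.05 (1.81%). With the replicate block that number was 548. DESeq2 called 0 genes for it. Without 1 library the number at an unadjusted p under 0.05 was 515 (first 2-week RFP), 110 (second 2-week RFP), 129 (second 2-week YFP) and 755 (first 4-day RFP). No time difference is therefore called as particular to the mutant cells. In summed libraries, fewer cells of a type and less RNA per cell cannot be told apart.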

How the data were processed

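Single cells were profiled from 4 RFP-sorted libraries of mutant reporter lungs, and the 4 YFP-sorted libraries and 2 Confetti libraries entered the fits. The authors deposited UMI counts per gene and barcode, aligned to GRCm38. The labels and the study's methods name Cell Ranger 3.1.0, while the file headers name version 5.0.1, and the labels also list FastQC 0.11.3 and MultiQC 1.8. The chemistry is v2 in the labels and v3 in the methods. How the counting treated strand or reads shared by paralogs is not given in the sources used here.

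From the deposited counts, cells were filtered as described, 13 mitochondrial genes were dropped of 31053 listed, and UMIs were summed per library. No doublet caller was run; cells above 50000 UMIs were left out (90 and 15 at 2 weeks, 0 and 1 at 4 days). Genes were tested with edgeR 4.0.16 (TMM, filterByExpr, quasi-likelihood F test, R 4.3.3) over 10 libraries and 6 groups, Benjamini-Hochberg adjusted over 14856 genes at 0.05; the scripts were tested on simulated data. SEs were computed from the fold and its F value. DESeq2 1.42.0 was an alternative, alongside another normalization, no low-count filter, other sets of libraries and cells, a replicate block, thinning and leaving out each library. For shares, cells were thinned to 2000 UMIs (seed 20), leaving out 5 and 2 shallower cells at 4 days and 6 and 2 at 2 weeks. Intervals are exact Clopper-Pearson at 95%. Total counts per RFP library ran from 9210705 to 71669755 UMIs, and the smallest library fitted, a 2-week YFP library, held 8163707.

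Coordinates are GENCODE M21 (GRCm38), with a position for 30998 of the gene IDs. The named genes were the leading 10 per direction, the 3 most abundant members of each list and the markers of mutant and alveolar states; Cdkn2a, Cdkn2b, Hspa5, Etv5, Procr, Mcpt1, Kng2, Cldn2, Krt19, H2-Eb1, Porcn, Bmp4, Pgk1, Cox6a2, Spry2, Mirg, Hspe1, Epcam, Anxa1, Fasn and Muc5b, and list members named without values, were added after their values were seen. The members and lists were chosen with earlier results of these data known. The mutated gene is not reported here.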

Additional observations from a re-analysis of the deposited data

Results flagged for a closer look

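Cebpb, a transcription factor of inflammation and of AT2 cells, had opposite directions over time in the cells of the same lungs. Its log2 fold change was -0.27 in RFP cells and 0.90 in YFP cells, and both libraries of the later time lay on the same side of both libraries of the earlier time in each. The difference itself was not tested beyond the interaction fit, in which no gene passed. Over all genes, 285 were higher in RFP and lower in YFP libraries at 2 weeks (1.92%) and 121 were lower in RFP and higher in YFP (0.814%). The RFP value was 0.49 when cells with a Ptprc UMI were kept.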

How the results depend on the processing

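The count of genes past the adjusted threshold was 0 in edgeR's test under every setting except no low-count filter (101, of which 78 higher and 23 lower), and DESeq2 called 91 (58 higher and 33 lower, with the adjusted p missing for 1729 genes). It was 0 to 0 when a library was left out. The count at an unadjusted p under 0.05 was 1295 and became 1949 without the filter, 2127 with the replicate number as a block and 696 in male cells (chosen after seeing the data), and ranged from 335 to 1586 when a library was left out. For the interaction it was 269 and became 699 without the filter, 548 with the replicate block, 156 with Ptprc cells kept and 124 with a minimum of 2000 genes, and ranged from 110 to 755 when a library was left out. Same-numbered libraries deviated together in all 6 pairs of the 4 groups (correlations of 0.109 to 0.6679, and 0.2229 between the RFP groups), and the first RFP and YFP libraries had a like share of female cells (82.3% and 83.7% at 4 days, 35.4% and 26.4% at 2 weeks). The labels give no meaning to the numbers, so this pairing is a hint from the data and not part of the design. Of the 120 genes with a fold, 40 passed under DESeq2 and 40 without the filter.

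The folds that changed sign were small in most cases. With a minimum of 2000 genes, Scd1 was at 0.37 and Fasn at 0.34. Elovl1 was at -0.067 from thinned cells, -0.036 with Ptprc cells kept and -0.045 without the second 2-week library (-0.045 to 0.14 over the libraries left out), and Cebpb was at 0.49 with Ptprc cells kept. Itgb1 was at -0.036, Ddx3y at -0.94 and Eif2s3y at -0.33 in male cells, and Rras was at -0.011 without the second 2-week library (-0.011 to 0.24 over the libraries left out). Of the medians of 46 gene lists, a minimum of 2000 genes moved 13 beyond the replicate spread and turned the sign of 10, and male cells moved 10 and turned 6. Leaving out leukocyte-like cells moved 0 and turned 3. Leaving out cells with a UMI of Pecam1, Col1a1 or Foxj1 moved 0 and turned 1. Of the 120 genes with a fold, 0 changed sign in either of these fits. With that minimum and in male cells the medians were 0.22 and 0.23 for DATP (0.57 with all cells), 1.27 and 1.35 for gastric genes (2.26), 0.75 and 0.41 for glycolysis (0.77), 0.68 and 0.74 for chaperones (1.00), -0.12 and -0.60 for MHC class II (-0.78), -0.17 and 0.41 for S phase (0.41), -0.017 and -0.15 for TGF-beta and BMP (0.12) and 0.23 and 0.077 for AT2 identity (-0.18). Leaving out 1 library turned the sign of 4 to 11 of the 46. The cause was not tested.

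The differences in share of cells between the times were larger at full depth, by construction, because the 2-week cells held more UMIs. In percentage points they were 9.26 for Cd177, 18.7 for Itga2, 14.3 for Dlk1, 30.1 for Spp1, 15.6 for Gzme, 31.4 for Areg and 22.1 for Cd38. At 4000 UMIs per cell they were 5.55 for Cd177, 10.5 for Dlk1 and 8.70 for Cd38, and 8.28 for Dlk1 with Ptprc cells kept.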
